A study of Homo sapiens with 6 samples.

Results

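The genes encoding the proteins of the cytosolic ribosome were examined in PC9-BrM3, a subline of the human lung adenocarcinoma line PC9 selected for metastasis to the brain, with AKR1B10 knocked down or left at its own level. Members were the protein-coding genes, outside chromosome Y, whose symbol is RPL or RPS followed by a number with an optional A, X or L and a further number, plus RPSA, RPLP0, RPLP1 and RPLP2. The rule took 84 of the 58735 genes of the expression table, and it used names only, not measured values. They comprise 31 core proteins of the small subunit, 46 core proteins of the large subunit and 7 paralogs whose symbol ends in L or L1.

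Bulk RNA-seq was available for 3 BrM3-shAKR1B10 libraries (AKR1B10 silenced by short hairpin RNA) and 3 BrM3-shNC libraries (negative control hairpin), all from cells in routine culture with serum and without drug. PC9-BrM3 had been obtained by repeated injection of PC9 into immunodeficient mice and recovery of cells from the brain, so both groups share this selected background, and BrM3-shAKR1B10 represents knockdown and not deletion. The labels number the libraries from 1 to 3 in each group but do not say that they came from separate cultures, so the p-values measure the spread between these libraries only. Because RNA was taken in bulk, fewer cells making a transcript and less transcript per cell cannot be told apart.

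AKR1B10 itself fell from 782 ± 14.6 FPKM in BrM3-shNC to 109 ± 1.52 in BrM3-shAKR1B10 (mean ± SD, n = 3 each), 13.9% of the control level. FPKM counts sequenced fragments relative to the length of the gene and the size of the library. The libraries held 16964504 to 18709028 reads on genes, and 3 reads on a gene of 1 kilobase corresponded to 0.163 to 0.177 FPKM. The epithelial markers EPCAM, KRT7, KRT8, KRT18, KRT19 and CDH1 were all expressed, whereas of the lung lineage markers NKX2-1, NAPSA, SFTPB and SFTPC none reached a mean of 1 FPKM. Of 6 markers of fibroblasts, endothelium, leukocytes, glia and neurons only COL1A1 passed that level, at 1.98 ± 0.0302 FPKM in BrM3-shNC and 1.22 ± 0.0963 in BrM3-shAKR1B10, and COL1A2 was at 0 in every library.

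The ribosome is built from ribosomal RNA and a large set of small, mostly basic proteins, in a small subunit that decodes mRNA and a large subunit that forms peptide bonds. Each core protein is needed in nearly equal copy number, and unassembled copies are degraded. Most of their mRNAs begin with a C followed by an unbroken run of pyrimidines, the terminal oligopyrimidine (TOP) motif, through which growth signals relayed by mTOR and the RNA-binding protein LARP1 set their translation and stability. Production of ribosomes is a large part of the biosynthetic cost of a dividing cell.

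The first bases of a few member transcripts are shown because the TOP motif stood at the start of members that fell, rose or did not pass the test, and RPS27L is shown as a paralog without it. Each window holds 10 bases before and 20 bases from the annotated transcription start, read in the direction of the gene from RefSeq (GRCh38.p14), and capitals mark a C at the start with the pyrimidines that follow it.
RPL24 (chr3:101686699-101686728, minus strand): atgattctctCTTTCTTTTCgccatctttt
RPSA (chr3:39406710-39406739, plus strand): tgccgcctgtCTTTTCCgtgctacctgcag
RPS18 (chr6:33272065-33272094, plus strand): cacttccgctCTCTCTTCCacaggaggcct
RPS19 (chr19:41860245-41860274, plus strand): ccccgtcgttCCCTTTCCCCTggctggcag
RPL27A (chr11:8682782-8682811, plus strand): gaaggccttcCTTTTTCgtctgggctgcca
RPL39 (chrX:119791611-119791640, minus strand): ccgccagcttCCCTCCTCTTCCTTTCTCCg
RPS27 (chr1:153990752-153990781, plus strand): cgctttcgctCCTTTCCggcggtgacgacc
RPS27L (chr15:63157458-63157487, minus strand): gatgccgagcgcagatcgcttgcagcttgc
RPL22 (chr1:6199576-6199605, minus strand): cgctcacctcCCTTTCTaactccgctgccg
RPL22L1 (chr3:170870176-170870205, minus strand): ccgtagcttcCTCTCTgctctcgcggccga

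A TOP start was scored where a listed start was a C followed by at least 4 further C or T bases on the sense strand, in any of the starts a gene has. Of the 84 members, 67 had an entry in the RefSeq table. A TOP start was present in 47 of these 67 (70.15%), against 1404 of all 27305 genes of the table (5.14%). It was found in 46 of 62 core genes and in 1 of 5 paralogs, RPL22L1. A gene without a match may start a few bases away from the annotated position, and no match says only that these letters are not at these starts.

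The only member past both thresholds of the study (adjusted p under 0.05 and a log2 fold change beyond 0.5) was the paralog RPL39L, and it differs from its core counterpart RPL39 at few bases. Both coding sequences are shown in full, stop codon included, from GENCODE 29 (GRCh38) transcripts on the minus strand of chromosome 3 for RPL39L and of chromosome X for RPL39, with the bases that differ in capitals.
RPL39: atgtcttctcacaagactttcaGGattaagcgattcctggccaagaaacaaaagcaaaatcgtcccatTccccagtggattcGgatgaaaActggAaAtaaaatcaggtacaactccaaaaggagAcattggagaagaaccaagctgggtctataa
RPL39L: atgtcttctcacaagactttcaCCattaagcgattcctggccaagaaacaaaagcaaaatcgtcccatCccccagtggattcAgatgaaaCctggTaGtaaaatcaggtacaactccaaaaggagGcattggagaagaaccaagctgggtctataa

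The 2 sequences have 156 bases each, differ at 8 of them (94.9% identity) and share no run longer than 44 bases. No stretch of 150 bases of the RPL39L transcript occurred in the transcript of another gene, so the 2 genes can be told apart over a read.

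Most members were among the strongly expressed genes of these cells. The mean over the 6 libraries was at least 100 FPKM for 56 members, between 10 and 100 FPKM for 20 and under 10 FPKM for 8, with a median of 193 FPKM. RPL13A, a large subunit protein, had the highest mean level in FPKM, at 1211, and RPS12 (900 FPKM), RPL8 (893 FPKM) and RPS2 (851 FPKM) were also among the most abundant. Among core members the lowest means were RPS10 at 1.38 FPKM and RPL36A at 3.51 FPKM. RPL10L, known as a testis paralog, had 0 reads in every library, and RPL3L, a striated muscle paralog, was at 0.0214 to 0.0993 FPKM.

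**Figure D1:**
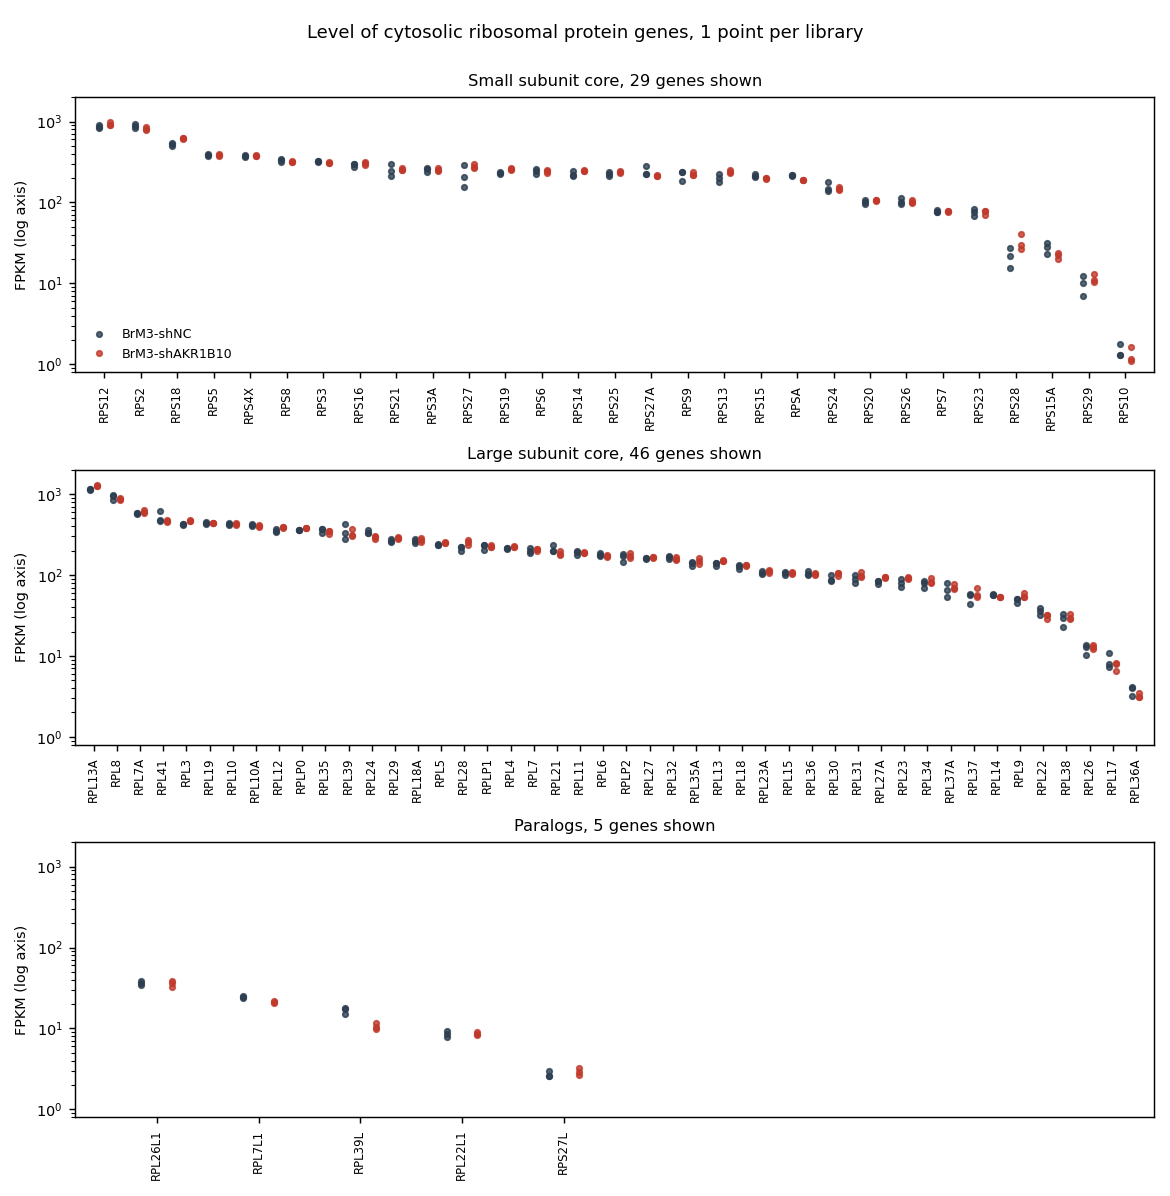
FPKM (log axis) of 80 of the 82 members with a mean of at least 1 FPKM, 1 point per library, BrM3-shNC in dark blue and BrM3-shAKR1B10 in red, in panels for the small subunit, the large subunit and the paralogs and ordered by mean level. For most genes the 6 points fall within a narrow band, and the levels run from 1.38 FPKM for RPS10 to 1211 FPKM for RPL13A.

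These levels depend on how length was counted. The authors divided by all annotated exon bases of a gene, which equalled the exon union of GENCODE 29 in 84 of 84 members. RPS29 was thereby divided by 9845 bases although its coding length is 168 bases, and it stood at 10.6 FPKM. With the same reads divided by coding length alone, RPL41 would stand highest and RPL39 next, ahead of RPL13A. For 11 members at least 25% of coding bases also lie in exons of another annotated gene, among them RPL17 (100%), RPL36A (94.34%) and RPS10 (92.12%). The read-through genes RPL17-C18orf32 and RPS10-NUDT3, which overlap 2 of them, were at 0 reads in all 6 libraries. How reads on shared bases were counted is not given in the sources used here, so the levels of these 11 members, among them RPL26, RPL22, RPS15A, RPS23, RPL30, RPL23A and RPS3A, are uncertain.

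Processed pseudogenes share sequence with the members as well. The table lists 1144 pseudogenes named after a member, and they held 3.84 to 4.25% as many reads as the members in each library. Reads on RPS28P7 (2078 to 2812 per library) exceeded those on RPS28 itself (601 to 1516), and reads on RPL9P9 (7304 to 8315) exceeded those on RPL9 (4140 to 5300). Pseudogenes of RPS10 held up to 259% as many reads as RPS10, which had 46 to 76 per library. The levels of RPS28, RPL9 and RPS10 are uncertain for that reason, and to a lesser degree those of RPL26 and RPS2, whose pseudogenes held up to 35.8% and 25.7% as many reads as the gene.

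The members as a group differed little between BrM3-shAKR1B10 and BrM3-shNC. Their summed level was 19856, 19238 and 19269 FPKM with AKR1B10 silenced and 19403, 19036 and 18603 FPKM with the control hairpin, and the groups overlapped. As a share of TPM, a scale on which all libraries have the same total, the sum was 6.68, 6.48 and 6.43% in BrM3-shAKR1B10 and 6.20, 6.33 and 6.13% in BrM3-shNC, without overlap. Of all reads on genes the members held 5.72 to 5.88% in BrM3-shAKR1B10 and 5.33 to 5.50% in BrM3-shNC. The summed FPKM of large subunit genes was 1.31 ± 0.00818 times that of small subunit genes in BrM3-shAKR1B10 and 1.32 ± 0.0190 times in BrM3-shNC (SD, n = 3), a difference smaller than the spread between libraries.

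Of the 84 members, 82 had a mean of at least 1 FPKM and entered the fit over 13150 genes with limma on log2(FPKM + 0.1) and Benjamini-Hochberg adjustment. With both thresholds, 1 of 82 was lower (RPL39L) and 0 were higher, where 13.3% of all genes tested were called. With limma's unadjusted p under 0.05 and the same fold threshold 1 was higher, RPS28, and voom on the recovered reads also gave 1. At an adjusted p under 0.05 alone, 6 members were lower and 9 higher, together 18.3% of the members against 42.5% of all genes. By direction, 7.32% of members were lower against 23.1% of all genes, and 11.0% were higher against 19.4%. The median log2 fold change of the members was 0.03 beside -0.01 for all genes. The median absolute log2 fold change was 0.10 for the members and 0.20 for all genes, with median standard errors of 0.06 and 0.07.

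For 74 of the 82 members (90.2%) the 95% interval of the log2 fold change lay within 0.5 of 0, against 61.8% of all genes tested. The libraries of the 2 groups did not overlap for 25 members, or fewer by share than the 54.7% of all genes tested. In the small subunit 2 of 31 genes were lower and 3 higher, and in the large subunit 2 of 46 were lower and 6 higher. The share of calls that were higher depended on the scaling between libraries. On TPM 5 members were lower and 17 higher, on reads scaled only to the reads on genes 5 and 18, and after quantile normalization 5 and 20. The median log2 fold change of all genes tested was 0.025, 0.036 and 0.0061 under these scalings. The share of all genes called under them is not given here, so these counts cannot be set against it.

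**Figure D2:**
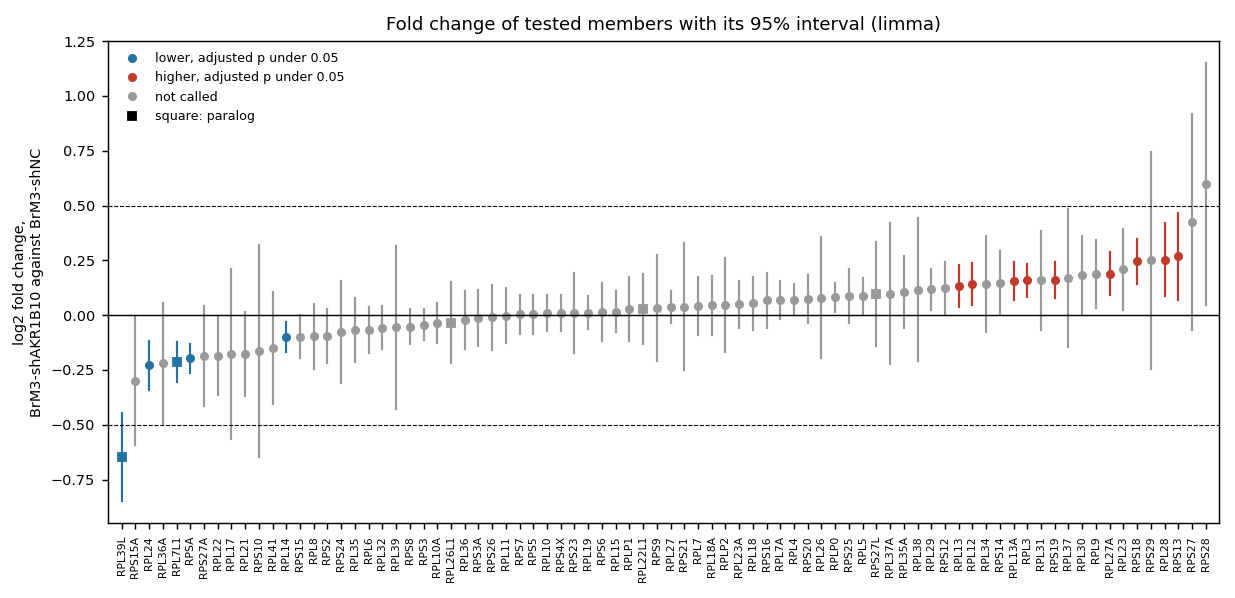
log2 fold change (BrM3-shAKR1B10 against BrM3-shNC) of 80 of the 82 members tested, ordered by size, with the 95% interval from limma as vertical lines and dashed lines at 0.5 either side of 0. Blue marks the 5 shown members that were lower and red the 9 that were higher at an adjusted p under 0.05, squares mark paralogs, and RPL39L is the only called member beyond a dashed line.

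Which library was left out also mattered for the higher members. Their count was 4 without BrM3-shAKR1B10 replicate 1 and 5 without BrM3-shAKR1B10 replicate 3, and 6 to 13 without another library. RPL24, RPL39L, RPL7L1 and RPSA remained lower in all 6 of these fits, and RPL27A, RPL3, RPS18 and RPS19 remained higher in all 6. The calls on RPL14, RPL12, RPL13, RPL13A, RPL28 and RPS13 were lost in at least 1 of them.

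Among proteins of the small subunit, RPSA had the smallest spread between replicates of the lower members. RPSA sits near the mRNA exit channel and is also known as a precursor of the laminin receptor at the cell surface. Its level was 189, 192 and 187 FPKM in BrM3-shAKR1B10 and 219, 215 and 217 FPKM in BrM3-shNC. Every knockdown library was below every control library, and the log2 fold change was -0.20 ± 0.03 (SE, limma adjusted p = 0.00167).

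Among the members that rose, RPS18, which contacts the transfer RNAs from the small subunit head, was the most abundant of the 3 in the small subunit. It was at 626, 623 and 604 FPKM in BrM3-shAKR1B10 and at 529, 541 and 494 FPKM in BrM3-shNC, with all knockdown libraries above all controls. The log2 fold change was 0.25 ± 0.04 (limma adjusted p = 0.00461). RPS19, the protein most often mutated in Diamond-Blackfan anaemia, was at 259, 253 and 263 FPKM against 224, 237 and 232 FPKM. Its log2 fold change was 0.16 ± 0.03 (limma adjusted p = 0.00942). RPS13 was at 248, 240 and 231 FPKM against 223, 200 and 177 FPKM, and its log2 fold change of 0.27 ± 0.08 passed narrowly (limma adjusted p = 0.0399).

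The proteins that line the path of the mRNA did not move together. RPS2 and RPS3 form the entry of the channel and RPSA, RPS26 and RPS28 surround its exit. Of these 5, RPSA passed the test in limma, and with voom on the recovered reads RPS2 was also lower and RPS28 higher. RPS2 was at 862, 793 and 813 FPKM in BrM3-shAKR1B10 and 836, 879 and 923 FPKM in BrM3-shNC, RPS3 differed by -0.04 ± 0.03 on the log2 scale and RPS26 by -0.01 ± 0.06. RPS6, the classical substrate of the S6 kinases, was at 248, 247 and 234 FPKM against 256, 224 and 243 FPKM, and its 95% interval ran from -0.12 to 0.15 on the log2 scale.

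RPS28 had the highest fold change of all members, and whether it passed the test depended on the fit. Its level was 40.5, 26.7 and 30.04 FPKM in BrM3-shAKR1B10 and 21.9, 27.3 and 15.5 FPKM in BrM3-shNC, and the groups overlapped. The log2 fold change was 0.60 ± 0.23 (limma adjusted p = 0.0779). RPS28 was called higher with voom, among protein-coding genes only and without BrM3-shNC replicate 2, and its log2 fold change was 0.38 without BrM3-shNC replicate 3. RPS27, a zinc-finger protein of the small subunit, was next at 301, 277 and 265 FPKM against 287, 205 and 155 FPKM, with 0.43 ± 0.21 (limma adjusted p = 0.141). RPS27 was called higher with voom and without BrM3-shNC replicate 1, where its log2 fold change was 0.65, against 0.21 without BrM3-shNC replicate 3. In both genes the third control library was the lowest of the 6.

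In the large subunit, RPL24 showed the largest fall of a core protein. RPL24 reaches across to the small subunit in a bridge between the subunits. It was at 281, 291 and 301 FPKM in BrM3-shAKR1B10 and 360, 335 and 329 FPKM in BrM3-shNC, without overlap. The log2 fold change was -0.23 ± 0.05 (limma adjusted p = 0.00823). Its pseudogene RPL24P4 moved in the same direction, with 633, 746 and 668 reads in the knockdown libraries and 1273, 998 and 1110 in the controls, a log2 fold change of -0.72 ± 0.08 (limma adjusted p = 0.000578). RPL24P4 was singled out after its values were seen.

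The other large subunit member that fell was RPL14, by 0.10 ± 0.03 on the log2 scale (limma adjusted p = 0.0294), from 57.0 ± 1.07 to 53.1 ± 0.372 FPKM. The call on RPL14 was lost on TPM, on reads scaled only to the reads on genes, after quantile normalization, without trend and with a replicate block.

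The 6 large subunit members that rose did so by small amounts. RPL3, a protein that reaches towards the peptidyl transferase centre, was at 466, 477 and 466 FPKM in BrM3-shAKR1B10 and 413, 427 and 422 FPKM with the control hairpin. The groups did not overlap, and the log2 fold change was 0.16 ± 0.03 (limma adjusted p = 0.00686). RPL27A was at 94.1, 95.7 and 90.9 FPKM against 84.2, 84.0 and 78.2 FPKM, with 0.19 ± 0.04 (limma adjusted p = 0.0106).

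RPL13A, the highest member in FPKM and also part of a complex that silences translation of inflammatory mRNAs, was at 1309, 1262 and 1257 FPKM against 1118, 1157 and 1160 FPKM. Its log2 fold change was 0.16 ± 0.04 (limma adjusted p = 0.0141). RPL28 was at 256, 233 and 273 FPKM against 199, 219 and 221 FPKM, a log2 fold change of 0.25 ± 0.07 (limma adjusted p = 0.026). Both calls were lost with no filter on low values, and that on RPL13A also with a replicate block. RPL12 and RPL13 had log2 fold changes of 0.14 ± 0.04 and 0.13 ± 0.04, and their groups did not overlap either. The call on RPL13 was lost with no filter, without trend and with a replicate block. It was also lost without BrM3-shAKR1B10 replicate 1, 2 or 3 and without BrM3-shNC replicate 2.

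**Figure D3:**
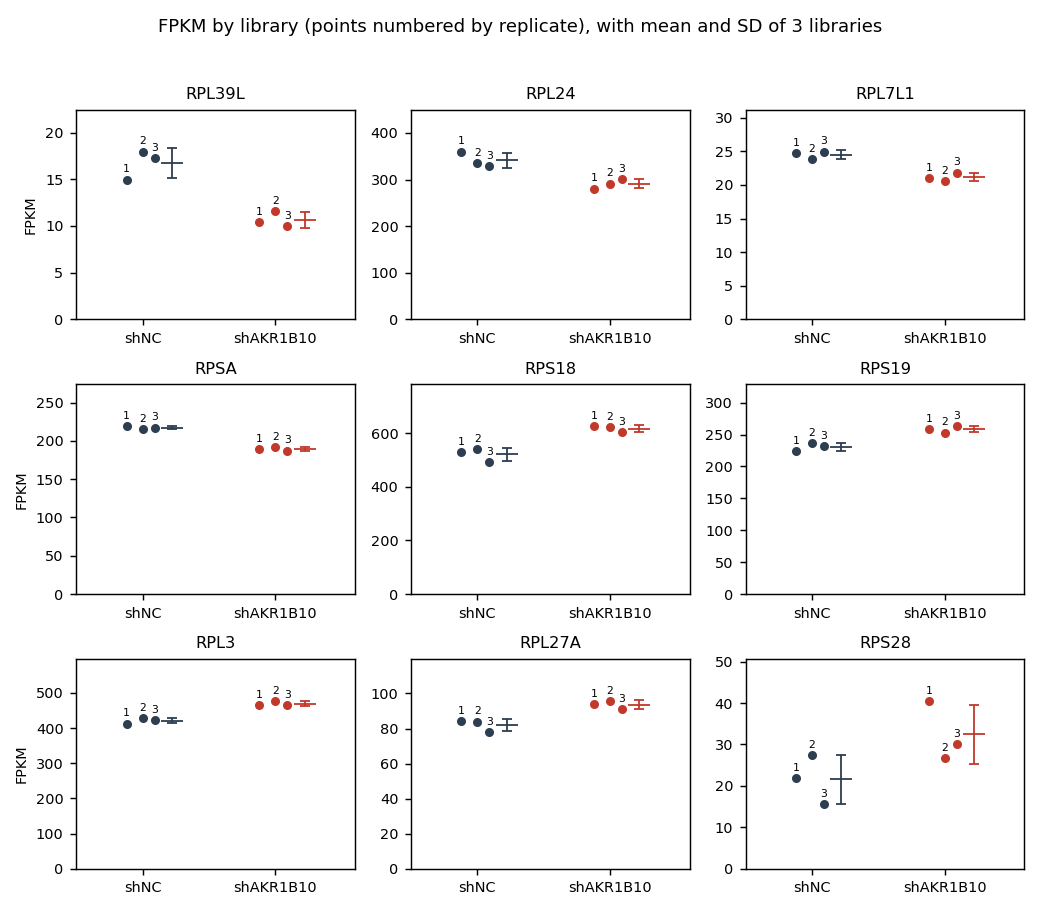
FPKM in each library (points numbered by replicate) with the mean and SD of 3 libraries, for 4 members that were lower (RPL39L, RPL24, RPL7L1, RPSA), 4 that were higher (RPS18, RPS19, RPL3, RPL27A) and RPS28, which missed the threshold. All vertical axes start at 0. The groups do not overlap in the first 8 panels, and in RPS28 the knockdown library at 26.7 FPKM lies below the control library at 27.3 FPKM.

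The stalk of the large subunit, which recruits translation factors, is made of RPLP0, RPLP1 and RPLP2 on a base of RPL12. Of the 4 genes RPL12 passed the test, a call lost with no filter on low values, without trend, with a replicate block and without any 1 of 5 libraries. RPLP0 was at 377, 379 and 384 FPKM against 363, 359 and 355 FPKM, a log2 fold change of 0.08 ± 0.03 that missed the threshold (limma adjusted p = 0.0569). RPLP0 was called higher on TPM, on reads scaled only to the reads on genes, after quantile normalization, with voom and without BrM3-shNC replicate 1. RPL5 and RPL11, which travel with 5S ribosomal RNA and can bind MDM2 when assembly fails, differed by 0.09 ± 0.03 (limma adjusted p = 0.079) and -0.0026 ± 0.05 on the log2 scale. RPL5 was called higher under the same 3 scalings and with voom. Of 8 proteins that line the peptide exit tunnel (RPL4, RPL17, RPL19, RPL23A, RPL26, RPL31, RPL35 and RPL39) 0 passed the test in limma, where 42.5% of all genes did, and 0 with voom. RPL4 was higher on TPM, on reads scaled only to the reads on genes and after quantile normalization, and RPL31 was higher with the replicate number as a block. RPL4 alone had an unadjusted p under 0.05, and the log2 fold changes of the 8 lay between -0.18 and 0.16.

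Some of the paralogs can take the place of a core protein in some tissues. RPL39L, enriched in male germ cells and the counterpart of the exit tunnel protein RPL39, was at 10.4, 11.5 and 9.95 FPKM in BrM3-shAKR1B10 and 14.96, 17.96 and 17.3 FPKM in BrM3-shNC. All knockdown libraries were below all controls, and the knockdown mean was 63.6% of the control mean. The log2 fold change was -0.65 ± 0.08 (95% interval -0.85 to -0.44, limma adjusted p = 0.00133), from 187 to 334 reads per library. The gene spans chr3:187120948-187180908 of GRCh38 on the minus strand.

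RPL39 itself was at 369, 315 and 302 FPKM against 429, 327 and 282 FPKM. It overlapped between groups, with a log2 fold change of -0.06 ± 0.16. Per library, RPL39L amounted to 2.82, 3.66 and 3.29% of RPL39 in BrM3-shAKR1B10 and to 3.49, 5.50 and 6.13% in BrM3-shNC. This ratio overlapped between the groups, since the first control library, where RPL39 was highest, fell among the knockdown libraries. The difference of the log2 ratio was -0.60 (exact two-sided permutation test, p = 0.2, Benjamini-Hochberg adjusted p = 0.3 over 6 pairs), and 3 libraries against 3 cannot reach a p below 0.1.

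RPL7L1, related to the large subunit protein RPL7, was at 21.0, 20.6 and 21.8 FPKM in BrM3-shAKR1B10 and 24.8, 23.8 and 24.97 FPKM in BrM3-shNC, without overlap. The log2 difference was -0.21 ± 0.04 (limma adjusted p = 0.00468). RPL7L1 was 10.1, 9.86 and 10.9% of RPL7 in the knockdown libraries and 11.5, 11.99 and 13.3% in the controls, the only pair of the 6 without overlap (exact two-sided permutation test, p = 0.1, adjusted p = 0.3).

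The remaining paralogs differed by less than their spread. RPL22L1 was at 9.10, 8.36 and 8.58 FPKM against 9.21, 8.47 and 7.87 FPKM, and RPL26L1 at 38.9, 36.3 and 32.3 FPKM against 38.9, 36.6 and 34.5 FPKM. RPS27L was at 3.21, 2.93 and 2.66 FPKM against 3.02, 2.58 and 2.61 FPKM, or 1.004 to 1.69% of RPS27. The 3 other ratios of these genes to their core genes gave exact permutation p values between 0.2 and 0.5. RPL36AL was well above RPL36A in every library, but 94.34% of the coding bases of RPL36A are shared with a read-through gene.

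A few core proteins carry names outside the rule. FAU, which makes a ribosomal protein fused to a ubiquitin-like protein, differed by -0.02 ± 0.05 on the log2 scale. RACK1, a scaffold on the small subunit, was at 277, 278 and 274.8 FPKM against 262, 265 and 261 FPKM, with a log2 fold change of 0.08 ± 0.03 (limma adjusted p = 0.0591), and it was called higher on TPM, on reads scaled only to the reads on genes, after quantile normalization and with voom. RPL36AL rose by 0.16 ± 0.05 on the log2 scale (limma adjusted p = 0.0343), a call lost with no filter, without trend and without any 1 of 5 libraries.

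The spread between replicate libraries was not the same for all members. For 11 tested members with a coding length under 300 bases the median SD within groups was 0.21 on the log2 scale, against 0.07 for the other 71 and 0.09 for all genes tested. RPS28, RPS29 and RPS27 had the largest values among the short members. RPL41, the smallest member with 75 coding bases, was at 480, 457 and 469 FPKM in BrM3-shAKR1B10 and 624, 479 and 470 FPKM in BrM3-shNC.

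The short members deviated together. The median deviation of the 11 genes from their group mean was 0.12, -0.05 and -0.08 on the log2 scale in replicates 1 to 3 of BrM3-shAKR1B10 and 0.26, 0.01 and -0.27 in those of BrM3-shNC. In the first library of each group 10 of 11 short members lay above their group mean, and in the third library of each group 1 of 11 did. The 73 members with at least 300 coding bases, of which 71 were tested, had median deviations between -0.02 and 0.04. Library fragments were selected by length in the protocol, and the part of this step in the spread of short transcripts was not tested. The division at 300 bases was made after the values were seen.

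**Figure D4:**
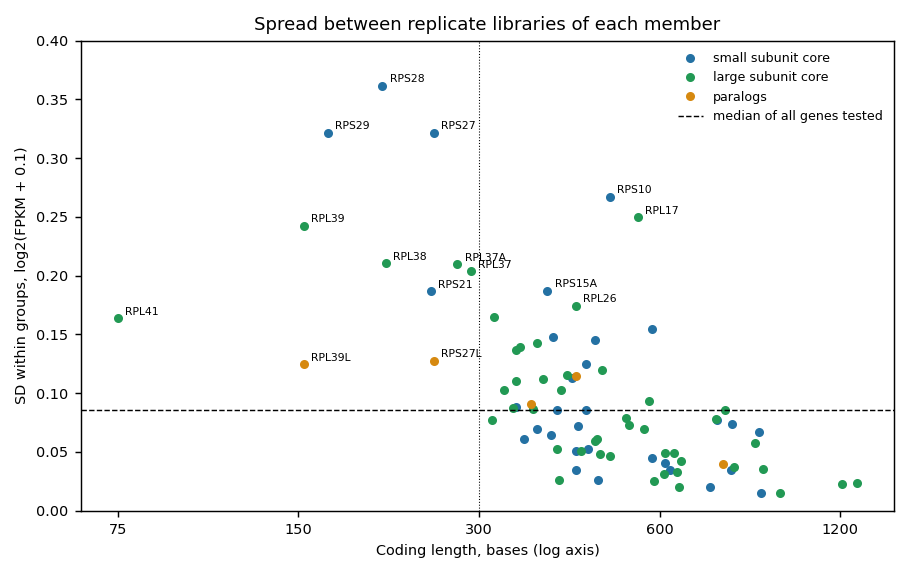
SD between replicate libraries on log2(FPKM + 0.1), pooled within groups, against coding length (log axis) for the 82 members tested, with the median of all genes tested as a dashed line and a dotted line at 300 bases. The 11 members left of the dotted line have a median of 0.21 and the others a median of 0.07.

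Introns of 28 members hold 60 small nucleolar RNAs, which guide the modification of ribosomal RNA. Of these hosts 1 was lower (3.57%) and 6 were higher (21.4%), beside 23.1% and 19.4% of all genes tested. Of the 54 other members tested 5 were lower (9.26%) and 3 higher (5.56%). A TOP start was present in 3 of the 4 lower members with a RefSeq entry (75%) and in 8 of the 9 higher members (88.9%), near the 70.15% of all members matched.

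Factors that assemble the subunits in the nucleolus were called lower more often than higher. Of 83 assembly factors tested (85 listed), 31 were lower and 4 higher at an adjusted p under 0.05, or 37.3% and 4.82% against 23.1% and 19.4% of all genes, and the median log2 fold change was -0.12. With the fold threshold 2 passed, both lower, or 2.41%, fewer by share than the 13.3% of all genes. EIF6, which keeps the large subunit from joining the small one until it is mature, was at 30.3, 30.8 and 32.9 FPKM in BrM3-shAKR1B10 and 57.9, 64.5 and 66.4 FPKM with the control hairpin. EIF6 therefore had a log2 fold change of -1.002 ± 0.06 (limma adjusted p = 6.14e-05). RRP1B fell by 0.59 ± 0.06 on the log2 scale (limma adjusted p = 0.000571).

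Abundant nucleolar proteins were among those that fell. FBL, the methyltransferase of ribosomal RNA, was at 68.2, 69.3 and 72.2 FPKM against 89.9, 90.7 and 91.8 FPKM, and NPM1 at 384, 412 and 396 FPKM against 533, 472 and 471 FPKM. NCL had a log2 fold change of -0.36 ± 0.04. The 4 factors that rose included SBDS and LSG1, which act in the last steps of large subunit maturation, SBDS in the release of EIF6. SBDS was at 23.7, 24.5 and 23.9 FPKM against 17.7, 16.7 and 19.0 FPKM, a log2 fold change of 0.43 ± 0.05 (limma adjusted p = 0.000905). LSG1 had a log2 fold change of 0.40 ± 0.03 (limma adjusted p = 0.000156).

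Some ribosomal proteins are escorted to the nucleolus by a dedicated chaperone. Of 8 such chaperones 4 passed the test, all of them lower, a share of 50% beside 42.5% of all genes called in either direction and 23.1% lower. PDCD2L, an escort of RPS2, fell by 0.71 ± 0.20 on the log2 scale (limma adjusted p = 0.0265), a value resting on 69 to 154 reads per library. PDCD2, also among the 8, did not pass the test, at 0.08 ± 0.04 (limma adjusted p = 0.161). BCCIP, an escort of RPL23, fell by 0.46 ± 0.04 (limma adjusted p = 0.000394). GRWD1, an escort of RPL3, fell by 0.24 ± 0.05 (limma adjusted p = 0.0117), whereas RPL3 rose. RPL23 was at 88.0, 95.04 and 92.7 FPKM against 88.1, 79.9 and 71.2 FPKM and missed the threshold (limma adjusted p = 0.0683), although it was called higher on TPM, with voom and in 5 other alternatives.

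Of 14 genes of RNA polymerase I, which transcribes ribosomal RNA, 3 were lower (21.4%) and 2 higher (14.3%), near the 23.1% and 19.4% of all genes, and the median log2 fold change was -0.11. UBTF, which binds the ribosomal RNA genes, was at 12.4, 13.3 and 12.8 FPKM against 17.3, 16.4 and 17.2 FPKM. UBTF showed a log2 fold change of -0.40 ± 0.04 (limma adjusted p = 0.000529). TAF1A and POLR1B fell as well, and the initiation factor RRN3 and TAF1C rose, each by less than 0.5 on the log2 scale.

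Other mRNAs known as TOP mRNAs, listed by name and not shown here to have a TOP start, were called in both directions. Of 16 tested, 5 were lower and 5 higher (31.2% each, beside 23.1% and 19.4% of all genes), each within 0.5 of 0 on the log2 scale. The elongation factor EEF2 was at 659, 643 and 668 FPKM against 547, 561 and 571 FPKM, a log2 fold change of 0.23 ± 0.03 (limma adjusted p = 0.00207), and the poly(A)-binding protein PABPC1 rose by 0.21 ± 0.04 (limma adjusted p = 0.00569). HNRNPA1 fell by 0.27 ± 0.03 (limma adjusted p = 0.000775).

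MTOR, EIF4EBP2 and MYC, which act on ribosome production, passed both thresholds, 3 of 10 listed regulators (30%) beside 13.3% of all genes. MTOR, the kinase that drives TOP mRNA translation, was at 3.42, 3.55 and 3.63 FPKM in BrM3-shAKR1B10 and 7.78, 8.18 and 8.56 FPKM with the control hairpin. The log2 difference was -1.19 ± 0.05 (limma adjusted p = 2.25e-05). EIF4EBP2, a repressor of cap-dependent translation that mTOR inactivates, fell by 1.05 ± 0.03 (limma adjusted p = 8.72e-06).

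MYC, a transcription factor that activates ribosomal protein genes and assembly factors, was at 25.9, 24.99 and 25.3 FPKM against 38.5, 39.6 and 38.8 FPKM. MYC thus fell with a log2 fold change of -0.62 ± 0.03 (limma adjusted p = 2.91e-05). LARP1 and RPS6KB1 fell by 0.10 ± 0.03 and 0.16 ± 0.05 on the log2 scale, and both calls were lost on TPM and with a replicate block. EIF4EBP1 was called lower with voom and without BrM3-shNC replicate 1. LARP4, RPS6KB2, EIF4EBP1 and MDM2 did not pass the test in limma over all libraries, so that 5 of the 10 regulators (50%) passed it, all of them lower, where 42.5% of all genes passed in either direction and 23.1% were lower.

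**Figure D5:**
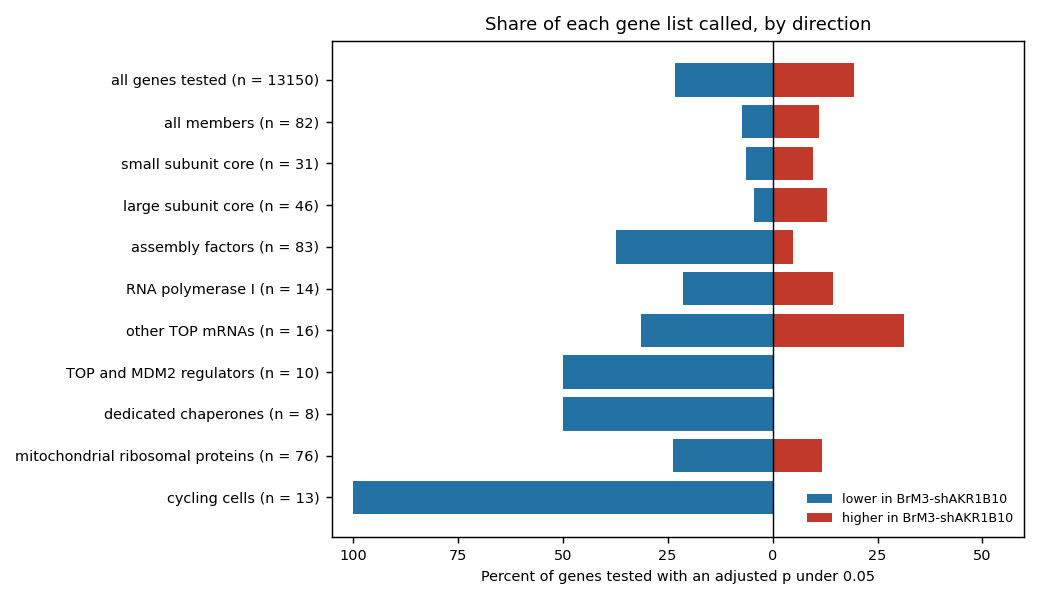
Percent of the tested genes of each list that were lower (blue, to the left) or higher (red, to the right) in BrM3-shAKR1B10 at a limma adjusted p under 0.05, with the number tested beside each name. All members show 7.32% lower and 11.0% higher, assembly factors 37.3% and 4.82%, and all genes tested 23.1% and 19.4%.

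Proteins of the mitochondrial ribosome, which translates the mRNAs of the mitochondrial genome, served for comparison. Of 76 tested (78 listed), 18 were lower (23.7%) and 9 higher (11.8%), beside 23.1% and 19.4% of all genes. With the fold threshold 4 were called (5.26%, all lower), fewer by share than the 13.3% of all genes. MRPL35 was at 5.48, 6.47 and 6.76 FPKM against 11.5, 10.5 and 11.0 FPKM, a log2 fold change of -0.81 ± 0.08 (limma adjusted p = 0.000482). MRPL9 fell by 0.65 ± 0.06 and MRPS10 by 0.59 ± 0.03.

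Genes of dividing cells moved in these libraries too. All 13 listed genes of DNA replication and mitosis were lower at an adjusted p under 0.05, against 23.1% of all genes. Their median log2 fold change was -0.75, and 9 of them (69.2%) also passed the fold threshold, beside 13.3% of all genes in either direction. MKI67, a marker of proliferation, was at 15.1, 16.4 and 15.8 FPKM in BrM3-shAKR1B10 and 40.3, 39.6 and 39.9 FPKM with the control hairpin, a log2 fold change of -1.34 ± 0.04 (limma adjusted p = 8.72e-06). Their part in the changes of the members, the assembly factors and MYC was not tested.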

How the data were processed

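Poly(A) RNA from 3 BrM3-shAKR1B10 and 3 BrM3-shNC libraries was sequenced as paired reads. The authors aligned reads with HISAT2 2.0.5, counted them per gene with featureCounts 1.5.0-p3 and deposited 1 table of FPKM values. Whether counting used the strand is not given in the sources used here. Positions of all 84 members match GENCODE 29 (GRCh38). The deposited FPKM already carries a scaling between libraries.

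The main fit took the 13150 genes with a mean of at least 1 FPKM, on a log2(FPKM + 0.1) scale. It used limma 3.58.1 (eBayes with trend, R 4.3.3), and p-values were adjusted by Benjamini-Hochberg over all of them. A fold change on this scale understates the change of low genes. Intervals are 95%, and ± after a log2 fold change is the SE. FPKM times gene length gave whole multiples of 1 read, within 0.001 of a read, in 100% of values above 0, which recovered the reads, and floors of 3 reads cover counting error only. In simulated data 200 genes were given a log2 change of 1 in either direction. With both thresholds 175 of these 200 were called with the right sign, and 11 of 12950 unchanged genes were called. Calls at an adjusted p alone and smaller changes were not tested in this way. Ratios of paralog to core gene were compared with an exact two-sided permutation test in scipy 1.17.1 (Python 3.11.15). Sequences came from RefSeq and GENCODE tables.

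The members and lists were chosen with earlier results of these data known. Genes named are AKR1B10, members called, the 5 lowest and 5 highest by fold change, the 5 most and 3 least abundant core members, the paralogs, stalk, RPL5 and RPL11, mRNA channel, regulators and core genes outside the rule, RPS6, and called genes of the other lists past both thresholds. Some genes under this rule are not reported here. Others were chosen after their values were seen.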

Additional observations from a re-analysis of the deposited data

How the results depend on the processing

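Pseudocounts of 1 and 0.01 and a scaling computed without the members left the calls on members as they were. The 9 higher members became 4 with no filter on low values, 17 on TPM, 18 on reads scaled only to the reads on genes, 20 after quantile normalization, 19 with limma voom on recovered reads and 15 among protein-coding genes only. They were 12 with a mean FPKM of at least 5 and 6 with eBayes without trend, which lost RPL12, RPL13 and RPS13 and, of the lower members, RPL14. The 6 lower members became 12 with voom. With both thresholds, 1 member was higher with voom and 1 among protein-coding genes only, RPS28 in both. The median log2 fold change of members was 0.068 on TPM, 0.079 on reads scaled to the reads on genes and 0.090 after quantile normalization. That of all genes tested moved as well, from -0.01 in the main fit to 0.025, 0.036 and 0.0061 in the same order. Leaving out 1 library gave 5 to 8 lower members, 4 to 13 higher members, 0 to 1 higher with both thresholds and a median log2 fold change of 0.0023 to 0.040. The cause of these shifts was not tested, and the share of all genes called under each of these fits is not given here.

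Log2 fold changes that changed sign were, on TPM, RPL26L1 0.0023, RPL11 0.034, RPS26 0.027, FAU 0.013 and MDM2 0.022. On reads scaled to the reads on genes they were RPL26L1 0.014, RPL11 0.046, RPS3 0.0049, RPS26 0.038, FAU 0.024 and MDM2 0.032. After quantile normalization they were RPL26L1 0.042, RPL11 0.060, RPS3 0.063, RPS26 0.040 and FAU 0.021. With 1 library left out, signs changed for RPL22L1 (-0.025 to 0.087), RPLP1 (-0.037 to 0.065), RPLP2 (-0.047 to 0.12), RPL11 (-0.057 to 0.041), RPS6 (-0.038 to 0.058), MDM2 (-0.057 to 0.040), RPL26L1 (-0.097 to 0.039), RPS26 (-0.059 to 0.050), FAU (-0.067 to 0.014) and the log2 ratio of RPL26L1 to RPL26 (-0.21 to 0.017). All of these missed the threshold in the fit they are set against.

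With the replicate number as a block, 5 members were lower and 9 higher, and 6 of the 9 were also higher without the block. The block lost the calls on RPL12, RPL13 and RPL13A and, of the lower members, on RPL14. Over all genes tested the correlation of deviations between libraries of the same number was -0.0155, 0.00388 and 0.00383, and the numbers were not taken to pair the libraries, although short members deviated alike in the first and in the third libraries of both groups. Of the tests planned on recovered reads limma voom was run, and the other count models were not run. Depth limits RPS10, RPL36A and RPL39L, which rest on few reads, and short members carry the largest spread.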
